A study of Homo sapiens with 24 samples.

Results

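The AP-1 and BATF family genes examined here were FOS, FOSB, FOSL1 and FOSL2, JUN, JUNB and JUND, and BATF, BATF2 and BATF3, which are 10 of the 19970 protein-coding genes of GENCODE version 44 on chromosomes 1 to 22 and X of hg38. Each was followed in the super-enhancers of OCI-Ly7, a human germinal center type diffuse large B-cell lymphoma line, by taking every super-enhancer that overlapped the gene body extended by 50 kb on each side, and the nearest one where there was none. The series profiled H3K27ac, H3K4me1 and H3K4me3 by CUT&RUN, which cuts out and sequences the DNA next to an antibody bound to a histone mark. Its 24 samples formed 12 groups of 2, from the 3 marks in isogenic lines of 4 genotypes: unedited cells (WT), cells homozygous for the CREBBP R1446C change that inactivates its acetyltransferase (C), homozygous KMT2D knockout cells (K) and cells with both lesions (CK), with no other treatment. All lines, the unedited controls included, were clones, and how many clones stood behind each genotype is not given in the sources used here. The table used here has 1 signal column, for the 2 WT H3K27ac libraries pooled, so that the edited lines were not analysed here, replicate error is unknown throughout, and no difference between genes could be tested.

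H3K27ac marks active promoters and enhancers, and a super-enhancer is a stretch of neighbouring enhancer peaks whose summed signal passes a cutoff set on all stretches. FOS, JUN and BATF proteins share a basic region that contacts DNA and a leucine zipper through which they pair. FOS proteins need a JUN partner, JUN proteins can also pair with themselves, and the short BATF proteins pair with JUN proteins and bind beside IRF4 or IRF8 at composite elements. In B cells this family responds to antigen receptor and CD40 signals, and BATF is needed for class switching.

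The table held 2615 super-enhancers above a cutoff of 10617, and the signal had a median of 19736. As a check of the labelled cell type by the same 50 kb rule, 7 of 9 B-lineage and germinal center genes had a super-enhancer, among them PAX5, EBF1, MS4A1, CD79A and BCL6. Among genes of other blood cells, 1 of 6 T cell genes (CD5) and 1 of 6 myeloid genes (CSF1R) had one.

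Of the 10 AP-1 and BATF family genes, 3 had a super-enhancer within 50 kb, against 30.7% of all protein-coding genes, so the family was at about the background share. These were JUND, BATF and BATF2, with 1 region each. None of the 4 FOS genes had one. At the limit of the rule, BATF lay inside it at 28.8 kb from its region and FOS lay outside it at 70.8 kb. The count followed the background as the rule was widened. A super-enhancer overlapped the body of 1 gene, BATF2, against 17.3% of all genes. Within 25 kb the count was 2 against 25%, within 100 kb it was 4 with FOS added, against 39.7%, and within 200 kb it was 5 with FOSL1 added, against 51.7%. Counted from the start site and 50 kb, which removes the effect of gene length, it was again 3, against 25.9% of all genes. Gene length matters here because these are short genes, from 1.83 to 24.9 kb with a median of 7.86 kb, where all protein-coding genes had a median of 27.5 kb. Among the 1307 regions with the highest signal, 2 of the 10 genes (JUND and BATF) still had one, against 16.8% of all genes.

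**Figure D1:**
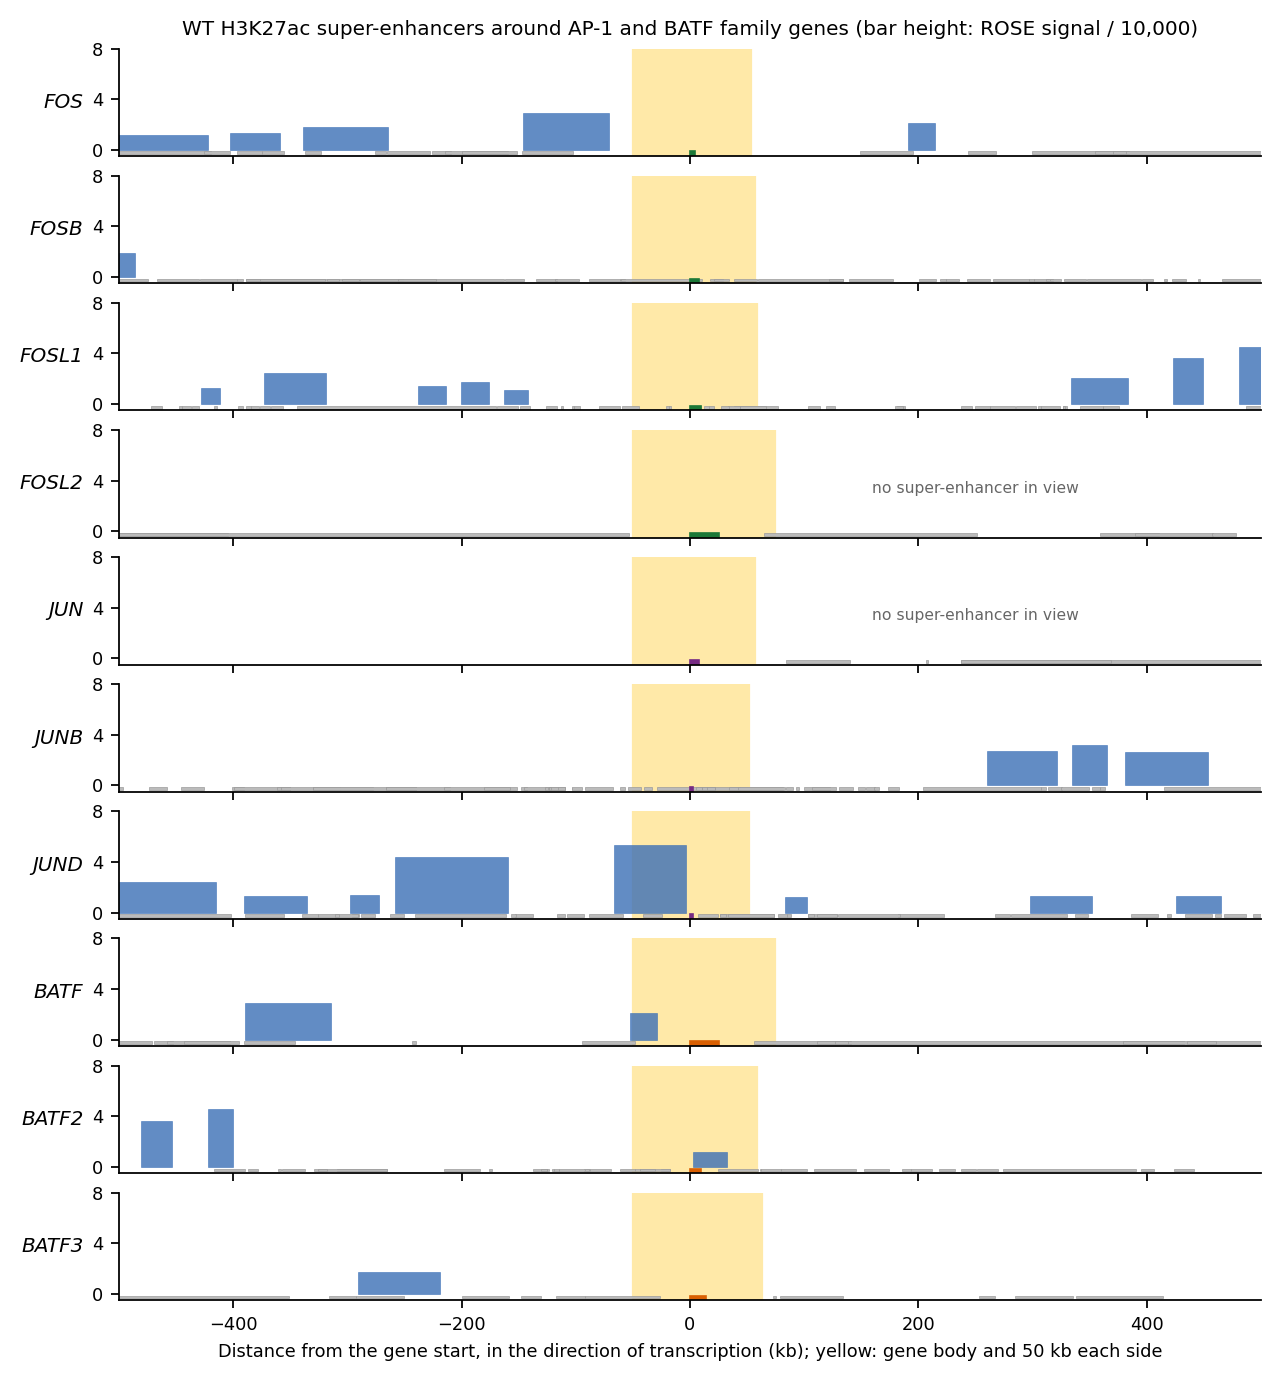
Super-enhancers (blue bars, height is the ROSE signal divided by 10000) around each of the 10 genes, with distance from the gene start in kb along the direction of transcription on the x axis, the gene itself in colour, other protein-coding genes in grey and the gene body with 50 kb on each side in yellow. JUND, BATF and BATF2 have a bar that reaches the yellow zone, and FOSL2 and JUN have none in view.

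The sequences at these loci are shown first, since the family binds its own kind of site. The proteins recognise the TRE, searched as TGACTCA or TGAGTCA, and the CRE, TGACGTCA. The letters of each motif cover both strands, and TGANTCA, used below as a looser form, holds the TRE within it. RefSeq promoter sequences (GRCh38.p14; all 8 found were identical to the hg38 sequence) were found for 8 of the 10 genes, FOSL1 and BATF3 being the others. The JUND promoter is printed because JUND had the family's highest-signal region, and the BATF promoter because BATF had the highest of the BATF genes. These are the bases before the start site up to 250, stopping before any annotated exon, 5′ to 3′ on the gene's strand, with the CRE in capitals.
JUND, chr19:18281623-18281872, minus strand: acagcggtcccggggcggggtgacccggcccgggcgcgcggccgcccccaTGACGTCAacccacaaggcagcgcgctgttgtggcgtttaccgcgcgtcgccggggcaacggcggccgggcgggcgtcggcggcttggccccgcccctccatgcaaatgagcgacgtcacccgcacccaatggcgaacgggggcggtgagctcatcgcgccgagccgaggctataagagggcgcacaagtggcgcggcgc
BATF, chr14:75522219-75522454, plus strand: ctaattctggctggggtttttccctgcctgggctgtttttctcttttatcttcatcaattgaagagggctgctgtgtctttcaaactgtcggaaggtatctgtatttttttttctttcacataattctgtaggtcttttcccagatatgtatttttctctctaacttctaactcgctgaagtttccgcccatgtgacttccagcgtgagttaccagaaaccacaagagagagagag

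The 2 promoters differ in base composition, with a GC content of 74.8% over the 250 bases for JUND and 43.2% for BATF. JUND was the only 1 of the 8 with a CRE, which began 200 bases before the start and which 1.65% of 35116 promoters of this length held. None of the 8 had a TRE, which 4.20% of all promoters held, and none had the CArG box bound by serum response factor in these 250 bases, which 1.16% held. FOS, FOSB and JUNB had TATAAA, at 33, 30 and 31 bases before the start, a motif of 6.80% of promoters. The JUN-type site TGACATCA, a variant of the CRE through which JUN is known to act on its own promoter, was present in JUN at 67 bases and in BATF2 at 132 bases before the RefSeq start, and in 2.37% of promoters on either strand. The BATF2 site lies in an annotated BATF2 exon of GENCODE, the JUN site in none. These short windows are printed with that site in capitals.
JUN, chr1:58784097-58784124, minus strand: ggccttggggTGACATCAtgggctattt
BATF2, chr11:64990392-64990419, minus strand: taggacagaaTGACATCAaggttgccac

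The JUN genes gave the strongest and the most remote cases of the family. JUND encodes the JUN protein that is present in most resting cells. The gene (ENSG00000130522.6) lies at chromosome 19, 18279694 to 18281622, on the minus strand. Its super-enhancer, at 18284681 to 18348362, began 3.06 kb upstream of the JUND start. It had rank 200 and a signal of 53715, which is 5.06 times the cutoff and above 92.4% of all regions. It was 63.7 kb long, close to the median of 60.7 kb, and held 14 constituent peaks where the median region held 16. Its signal per bp of 0.844 was above 91.9% of regions, against a median of 0.343. The region covered LSM4 and part of PGPEP1, with the start sites of both. JUND was the third nearest start site with no other start site between. Of its bases, 4.76% were exonic, 33.9% intronic and 61.3% outside protein-coding genes. As the region began 3.06 kb from the JUND start, H3K27ac at the JUND promoter itself is not in this value. Peaks within 2.5 kb of a start site had been left out by the authors before stitching. The signal is nevertheless the sum over the whole stitched region, so it can include H3K27ac at the LSM4 and PGPEP1 start sites.

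JUN, the founding member, and JUNB, which often opposes it in proliferation, had no super-enhancer nearby. JUN (ENSG00000177606.9, chromosome 1, 58776845 to 58784048, minus strand) was the farthest of the family. Its nearest region, of rank 111 with a signal of 64383 over introns of SSBP3, was 4.38 Mb away, and on the other side the next was 6.05 Mb away. The 10.4 Mb between them formed 1 of the longer empty stretches of the table, as 41 of 2592 gaps between neighbouring regions were longer and the median gap was 216 kb. Of all protein-coding genes, 96.2% were closer to a super-enhancer than JUN. The surroundings of JUN are also poor in genes, with 4 other start sites within 500 kb and none of their genes within 50 kb of it. JUNB (ENSG00000171223.6, chromosome 19, 12791486 to 12793315) was 259 kb from a region of rank 833 (signal 26887) over NFIX, LYL1 and TRMT1, with 16 start sites in between. It lay among 47 other start sites within 500 kb, so that a dense gene neighbourhood and the lack of a nearby region occurred together. JUNB and JUND are on the same arm of chromosome 19, and within 500 kb JUNB had 3 regions and JUND 8.

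The BATF genes followed. BATF (ENSG00000156127.8) lies at chromosome 14, 75522455 to 75546993, and its region at 75469928 to 75493683, 28.8 kb upstream of the start. The region had rank 1174 and a signal of 21137, or 1.99 times the cutoff, near the middle of the table with 55.1% of regions below it. It was short, at 23.8 kb with 10 constituents, and its signal per bp of 0.890 was above 92.8% of all regions. By that measure it stood at rank 188, ahead of the JUND region at rank 212. All regions had passed a cutoff on summed signal, so a short region could enter only with a high signal per bp. By signal per bp of constituents, the BATF region had rank 528 and the JUND region rank 233. The constituents of the BATF region were close together, at 4.21 per 10 kb against a median of 2.65. The region overlapped the end of JDP2, which encodes a JUN partner that represses AP-1 sites, with 17.6% of its bases in exons and 82.4% outside protein-coding genes. No start site lay inside it, and the nearest protein-coding start site was that of BATF.

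FOS, JDP2 and BATF lie in this order on chromosome 14 and are transcribed in the same direction, with 240 kb between FOS and BATF. The region at JDP2 was 188 kb from FOS. FOS (ENSG00000170345.10, 75278826 to 75282230), the classic immediate early gene, lay between this region and another at 75132620 to 75208066 over TMED10. That one was nearer to FOS, with rank 746, a signal of 28752 and a signal per bp of 0.381. No protein-coding start site lay between it and FOS, no other protein-coding gene lay within 50 kb of FOS, and 5 super-enhancers lay within 500 kb.

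BATF2, an interferon-induced member, was the only 1 of the 10 genes that a super-enhancer overlapped. The gene (ENSG00000168062.10) spans chromosome 11, 64987945 to 64997018, on the minus strand, and the region ran from 64964944 to 64994748. The region stopped 2.27 kb short of the GENCODE gene start, while the RefSeq start lay inside it. It had rank 2307 with a signal of 12124, only 1.14 times the cutoff and above 11.8% of regions. It held 4 constituents over 29.8 kb, at 1.34 per 10 kb, and it also overlapped part of MAJIN, including the MAJIN start site. Its signal per bp of 0.407 was above 62.6% of regions, a measure that the cutoff also keeps high for a region this short. Among the 3 regions the order by signal was thus JUND, BATF and BATF2, at 53715, 21137 and 12124, with no replicate spread to set beside the differences. BATF3, which conventional type 1 dendritic cells need, was 219 kb from its nearest region (rank 1499, signal 17757, over VASH2), and 4 start sites lay in between. The region over VASH2 was also the nearest to ATF3, another stress-responsive gene of this class.

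**Figure D2:**
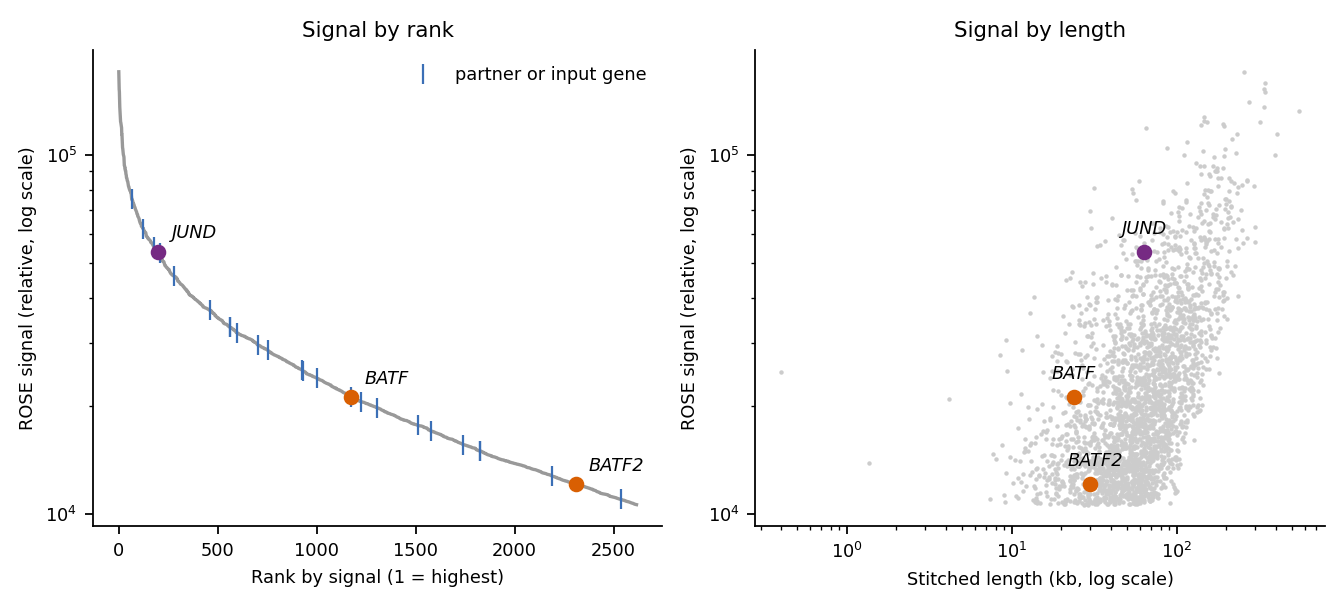
ROSE signal of all 2615 super-enhancers against rank (left) and against stitched length in kb (right), log scales as labelled, with the regions of JUND, BATF and BATF2 as coloured points and those of partner or input genes as blue ticks. JUND sits at rank 200 and BATF2 near the foot of the curve at rank 2307, and JUND and BATF lie above most regions of their length.

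The remaining FOS genes were farther away than FOS. FOSL1 (FRA-1; ENSG00000175592.9, chromosome 11, 65892049 to 65900573) was 142 kb from a region at 66042210 to 66063779 over GAL3ST3 and SF3B2. That region had a signal of 10985, 1.03 times the cutoff, and 8 start sites lay in between. FOSB (ENSG00000125740.15, chromosome 19, 45467995 to 45475179) was 486 kb from a region of rank 1352 (signal 19205) over CLPTM1 and APOC2, with 15 start sites in between. FOSL2 (FRA-2; ENSG00000075426.12, chromosome 2, 28392448 to 28417317) was 1.59 Mb from a region of rank 1575 (signal 17046) over SLC35F6 and CENPA, and the stretch around FOSL2 without a super-enhancer measured 3.31 Mb. FOSL2 and JUN were the 2 genes with no region within 1 Mb, whereas JUND had 11 and FOSL1 had 10. Of all protein-coding genes, 19.4% were 1 Mb or more from a region. The median distance was 180 kb for the 10 genes and 182 kb for all protein-coding genes, so the family spanned the range of the genome without a shift of its middle.

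**Figure D3:**
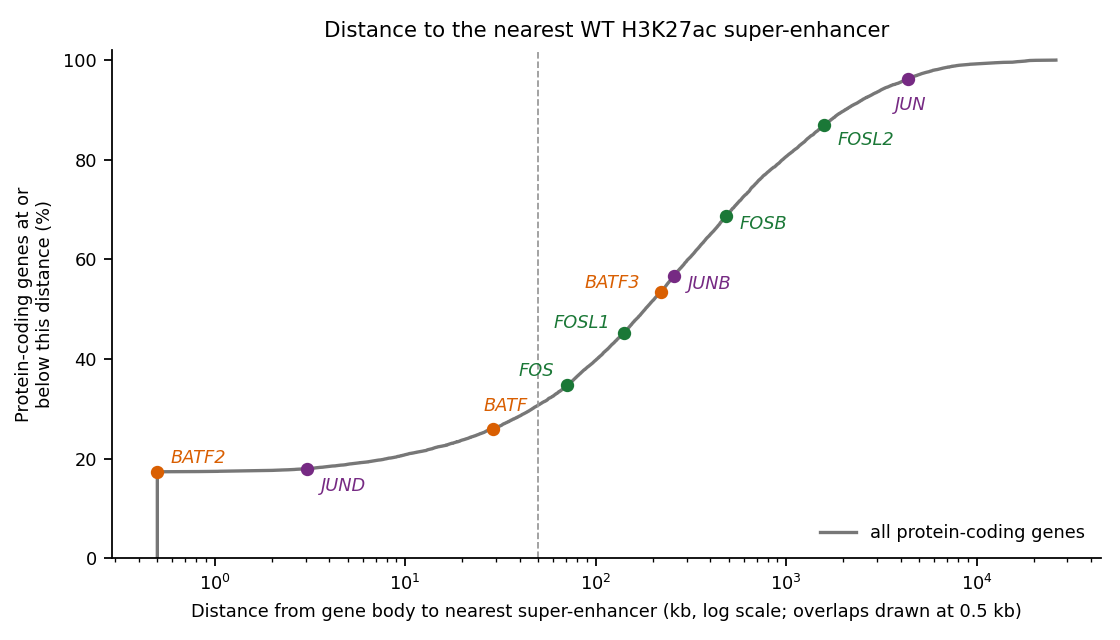
Share of protein-coding genes (y axis, %) whose gene body lies at or below a given distance in kb (log x axis) from a super-enhancer, with the 10 family genes marked on the curve and the 50 kb rule as a dashed line. The genes spread over the whole curve, from BATF2 at an overlap to JUN at 4.38 Mb.

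The family's own motif was then counted in the regions. A TRE occurred at a median of 1.60 per 10 kb over all 2615 regions, with 90% of regions between 0.705 and 2.74, and 99% of regions had at least 1 match. The rate over all their bases was 1.66 per 10 kb and that of the genome 1.57 per 10 kb. The JUND region held 18 matches, or 2.83 per 10 kb, above 95.8% of regions, and the BATF2 region held 9, or 3.02 per 10 kb, above 97.3%. The BATF region had 3 matches, or 1.26 per 10 kb, which is below the median. The 7 regions nearest to the other genes ran from 0.489 per 10 kb (JUNB) to 2.11 per 10 kb (BATF3). With any middle base allowed (TGANTCA), the JUND region fell back to a place above 64.6% of regions and the BATF2 region to one above 87.2%. In the JUND region 4 of the 18 matches, and in the BATF2 region 2 of the 9, lay beside a 12-base sequence that occurs over 10000 times in the genome. Without such matches the places were above 90.1% and 93.2% of regions. The GC content of the JUND region was 53.9%, that of the BATF2 region 49.4% and that of the BATF region 47.0%, against a median of 45.7%. The table does not give the positions of constituent peaks, so it is not known whether a match lay under a peak.

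Some of these matches are printed with the TRE in capitals on the plus strand of hg38. In the JUND region 1 pair of matches was separated by 9 bases, the only pair within 50 bases of each other among the regions within 50 kb of, or nearest to, the 10 family genes. The 3 matches of the BATF region are all it holds, and all lay outside exons.
JUND pair, chr19:18344006-18344050: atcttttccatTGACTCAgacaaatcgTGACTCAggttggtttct
BATF first, chr14:75487521-75487549: cacctttgataTGACTCAttttgatgaaa
BATF second, chr14:75488748-75488776: ttataattattTGACTCAcatatttccag
BATF last, chr14:75492891-75492919: tgagcctccatTGACTCAtctatgaaata

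The BATF-IRF composite element was searched in both its known arrangements, GAAA directly before TGANTCA and TTTC 4 bases before TGANTCA, on either strand. It was found in 39.3% of regions. The BATF2 region held 1, the BATF and JUND regions held none, and 1 further match lay in the region nearest to JUN. The BATF2 match lies outside exons and is of the second arrangement, with the whole element in capitals on the plus strand. A CRE was present in 28.6% of regions and in none of the 3.
BATF2 composite, chr11:64994623-64994659: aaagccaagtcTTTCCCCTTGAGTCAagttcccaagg

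**Figure D4:**
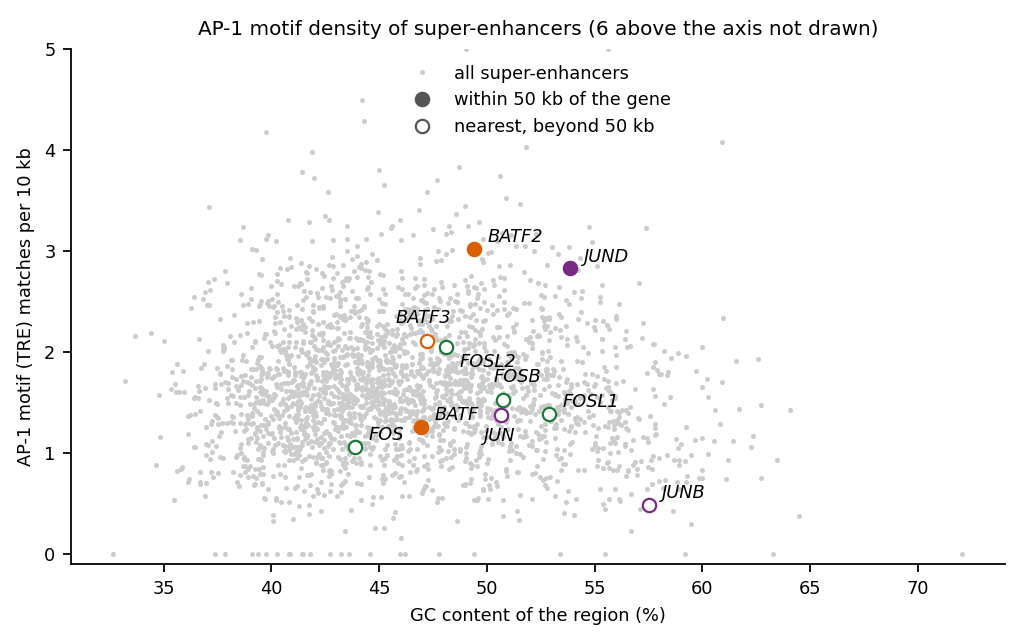
TRE matches per 10 kb (y axis) against GC content in % (x axis) for all super-enhancers (grey, 6 above the axis not drawn) and for the region of each family gene, filled where it lies within 50 kb and open where it is only the nearest. JUND and BATF2 lie near the top of the cloud, and JUNB near its foot.

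Genes that work with the family were looked at by the same rule. Of 44 partner, kinase and immediate early genes, 24 (54.5%) had a super-enhancer within 50 kb, against 30.7% of all genes and 3 of the 10 family genes. Counted from start sites it was 23 of 44, against 25.9%. Among 15 other basic leucine zipper genes, 9 had one. The strongest was that of BACH2, a repressor of plasma cell fate, with 2 regions and a top rank of 66 (signal 75398). It was followed by MAFF, a small MAF protein, with rank 278 (signal 45955) and by NFE2L3 with rank 706 (signal 29501). The region of rank 1174 counted for both JDP2 and BATF. Of the BATF partners, IRF4 had 2 regions with a top rank of 1825 (signal 14974), 3.83 kb from the gene. The nearest region to IRF8 was 52.5 kb away, just beyond the limit; IRF8 is named after its value was seen.

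Of 11 genes of the MAP kinase routes that induce or phosphorylate the family, 5 had a super-enhancer. These included MAPK14 (p38 alpha; rank 924, signal 25201) and MAP2K7, which activates JUN kinases (rank 932, signal 24981). The JUN kinase genes themselves, MAPK8, MAPK9 and MAPK10, had none, and were likewise named after their values were seen. Of 6 genes of the serum response that drives FOS, 4 had one. MRTFA had 3 regions with a top rank of 125 (signal 62324), which lay beside the gene over TNRC6B and ADSL. ELK3 had rank 208 (signal 53277) and ELK4 rank 563 (signal 33058). Of 10 other immediate early genes, 5 had one. NR4A1 had rank 460 (signal 36905), EGR1 rank 560 (signal 33191) and IER2 rank 599 (signal 31920), all above the BATF and BATF2 regions. The regions of BACH2 and MRTFA had a higher signal than that of JUND.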

How the data were processed

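The authors ran nf-core cutandrun on the reads (build hg38), each genotype having its IgG control, read depth was scaled to reads at promoters, and peaks were called with SEACR. The submitters' processing notes also name DiffBind 3.6.1 and DESeq2, without a role. Super-enhancers were defined by the authors with ROSE on pooled WT H3K27ac, leaving out peaks within 2.5 kb of a start site and stitching at 12500 bp. The deposited signal is the sum over a stitched region. Its unit and read depth are not given in the sources used here, so it is a relative value with no counting interval. All rows passed the cutoff; regions below it were not analysed here.

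Distances, overlaps of at least 1 bp and motif matches were computed from the region table, GENCODE 44 and the hg38 sequence with Python 3.11.15, numpy 2.4.6, pandas 2.3.3 and matplotlib 3.10.9. Signal per bp is the signal divided by end minus start. Distances run from the gene body unless a start site is named. The distance and motif code was tested on simulated data. The family genes and the lists were chosen with earlier results of these data known. No test was made. All 10 genes and, from each partner list, the 3 genes with the highest-ranked region were named; others are marked, and some results are not reported here. With 1 pooled column, no likeness of pattern between genes was computed. Protein sequences were not used here.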

Additional observations from a re-analysis of the deposited data

How the results depend on the processing

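No paired analysis was possible because the table has 1 pooled column without replicate numbers, and leaving out a replicate was not possible for the same reason. The number of family genes with a super-enhancer was 3 and moved to 1 with the gene body alone and to 5 within 200 kb; it was 2 to 4 under the other settings, including 3 with at least 1000 bp inside the window. The highest-placed region passed from JUND, at rank 200 by signal, to BATF at rank 188 by signal per bp, and was again that of JUND, at rank 233, by signal per bp of constituents. TRE density over the 3 regions was 2.56 per 10 kb, or 1.54 times that of all regions. With any middle base it was 3.33 per 10 kb, only 1.11 times that of all regions. Without matches beside a repeated sequence, a setting chosen after seeing the data, it was 2.05 per 10 kb, or 1.45 times. The partner count of 24 lay between 17, with the 1307 highest-ranked regions, and 28 within 100 kb; counting from start sites was added after seeing the data. Leaving out repeat-marked bases was not run, since the genome sequence marks none. Of the 3 regions within 50 kb, that of BATF2, at 1.14 times the cutoff, is the most exposed to the unknown spread between libraries. The FOSL1 region, which enters the count only within 200 kb, was at 1.03 times the cutoff.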
